A study of Mus musculus with 12 samples.

Results

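The 10 genes described here belong to the bone morphogenetic protein (BMP) pathway or, for Smad3, to the related Nodal, activin and TGF-beta branch. These are the ligand genes Bmp4 and Bmp7, the receptor gene Bmpr1a, and the Smad genes Smad3, Smad6 and Smad7. The others are the target genes Id1, Id2, Id3 and Id4. All 10 were taken as a list, and Mediator regions were given to a gene by position alone. For each Mediator subunit the peaks of 4 libraries were joined wherever they overlapped by at least 1 bp, and a joined region belonged to the protein-coding gene whose span lay nearest, within 100 kb. The 10 genes, of 21883 protein-coding genes in the table used, held 106 of 59824 assigned MED1 regions and 97 of 59990 assigned MED24 regions. The gene table is of the GRCm38.p6 assembly and gives each gene's span without exons, so a region "inside" a gene may be exonic or intronic.

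BMP ligands bind paired type I and type II receptors, among them BMPR1A, which phosphorylate SMAD1, SMAD5 and SMAD9. These join SMAD4 and enter the nucleus, where they bind enhancers, while SMAD3 does the same for Nodal, activin and TGF-beta signals. SMAD6 and SMAD7 are inhibitory Smads that are themselves induced by the pathway and shut it off. Id proteins lack a DNA-binding region and hold basic helix-loop-helix factors away from DNA. In mouse embryonic stem cells, BMP in serum and the Id genes it induces are known for restraining differentiation beside LIF, and ERK is known to phosphorylate the linker of BMP Smads and so to limit their action.

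Mediator, a large complex that passes signals from factors on enhancers to RNA polymerase II, was mapped by ChIP-seq in E14tg2a mouse embryonic stem cells of 129SV background. All cells carried a stable cRAF-ErT2 cassette, a RAF kinase that 4-hydroxytamoxifen (4OHT) switches on. All had grown in serum with LIF and 2 µM Chir99021, an inhibitor of GSK3, and then spent 24 h in serum with LIF and 250 nM PD173074, an inhibitor of FGF receptors. The 0 h groups were left untreated and the 2 h groups received 250 nM 4OHT for 2 h. MED1 was precipitated with its own antibody and MED24 through FLAG, in clones a and b of each group, giving 8 peak lists in 4 groups. Peaks of the lists labelled MED24 bear FLAG and, as part of a path, the cofactor EP300 in their names, so MED24 rests on the sample labels throughout. Neither a vehicle control nor cells lacking the cassette entered the comparison, and the effects of 4OHT itself, of time and of the RAF to ERK pathway cannot be told apart. The promoter that drives the cassette is not given in the sources used here, and the 4 input samples were not analysed.

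The lists held from 37483 to 38668 MED1 peaks at 0 h and from 43949 to 47305 at 2 h, and from 38398 to 41689 and from 42445 to 48931 MED24 peaks. Read numbers are not part of the peak lists, so the depth is unknown. All 6 embryonic stem cell markers examined (Pou5f1, Sox2, Nanog, Esrrb, Klf4 and Zfp42) had a region called in all 4 libraries of each protein. Of 5 fibroblast markers 1 had such a region in MED1 and 2 in MED24, and of 5 primitive endoderm markers 2 in each. A region marks occupancy near a gene and not its expression, and in bulk chromatin fewer occupied cells and less occupancy per cell cannot be told apart.

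The first comparison asked whether Mediator sites at these genes differed after 2 h of 4OHT. A gained region held a peak in the 2 h library of each clone and in no 0 h library. A lost region showed the opposite pattern, and a retained region held a peak in the 4 libraries of its protein. Of the 106 MED1 regions, 18 (17.0%) were gained, 4 (3.77%) lost and 34 (32.1%) retained. Over all assigned MED1 regions these shares were 17.0%, 6.53% and 31.9%, so the list as a whole sat at the background for gained and retained regions. Of the 97 MED24 regions, 9 (9.28%) were gained, 8 (8.25%) lost and 39 (40.2%) retained, beside 15.8%, 8.30% and 33.4% over all assigned MED24 regions. The remaining 50 MED1 and 41 MED24 regions were called in other patterns, most often in a single library (34 and 25 regions). No test was run per region. Counted within each clone and averaged (the replicate block), gained and lost regions came to 30 and 15.5 in MED1 and to 20.5 and 17.5 in MED24, since a call in 1 clone then suffices. Leaving out the 0 h MED1 library of clone a raised the lost count to 14, and leaving out that of clone b to 12. For MED24 the gained count became 15 on leaving out clone a at 2 h and 19 on leaving out clone b at 2 h. The MED24 lost count became 13 on leaving out either clone a at 0 h or clone b at 2 h.

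**Figure D1:**
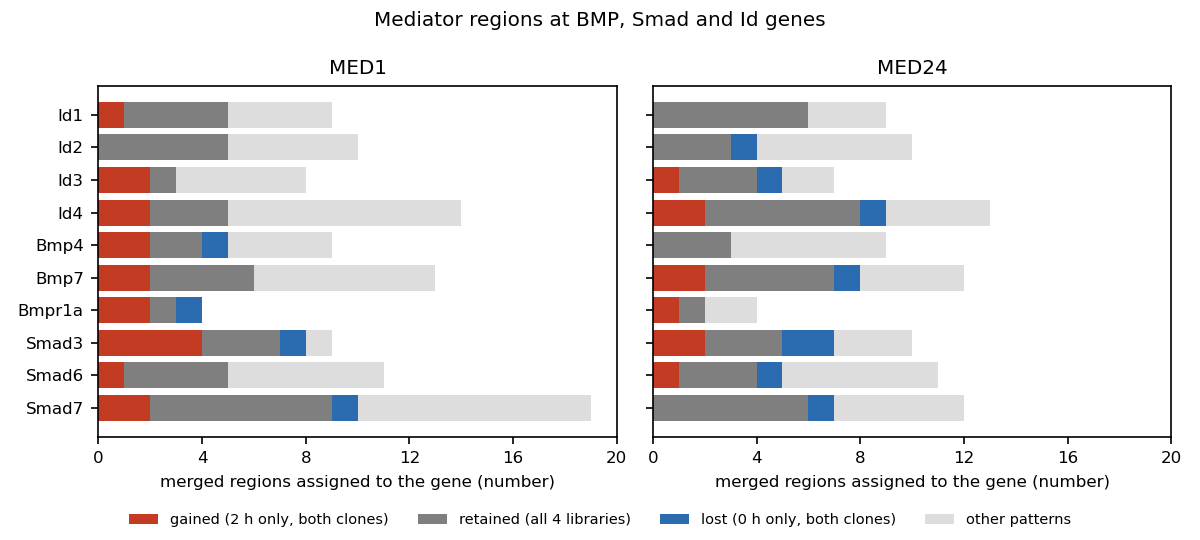
Number of merged MED1 (left) and MED24 (right) regions assigned to each of the 10 genes, stacked by call pattern over the 4 libraries of a protein. Smad7 held 19 MED1 regions, the highest number, and Bmpr1a 4 in each protein, the lowest; Smad3 had 4 gained MED1 regions.

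Smad3 had the most gained MED1 regions, 4 of 9 with 1 lost, while Id2 had no gained region in either protein. Bmp4, Bmp7, Bmpr1a, Id3, Id4 and Smad7 had 2 gained MED1 regions each, and Id1 and Smad6 had 1. In MED24, Bmp7, Id4 and Smad3 had 2 gained regions each, Bmpr1a, Id3 and Smad6 had 1, and Id1, Id2, Bmp4 and Smad7 had none. Lost MED1 regions lay at Bmp4, Bmpr1a, Smad3 and Smad7, 1 at each. Lost MED24 regions lay at Smad3, which had 2, and at Id2, Id3, Id4, Bmp7, Smad6 and Smad7, which had 1 each.

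The number of member regions called per MED1 library was 58 (clone a) and 56 (clone b) before 4OHT and 73 and 70 after it, means of 57.0 ± 1.41 and 71.5 ± 2.12 (SD, n = 2). Both 2 h libraries lay above both 0 h libraries, by 15 regions in clone a and 14 in clone b (exact two-sided permutation p = 0.333, the smallest that 2 libraries against 2 allow). The MED24 numbers were 65 and 62 at 0 h and 67 and 66 at 2 h, means of 63.5 ± 2.12 and 66.5 ± 0.707 (SD, n = 2), with the same exact permutation p of 0.333. The MED24 difference of 3 regions was little more than the SD between the 0 h clones. The 2 h lists were also longer over the whole genome, as given above. With each list shortened to its 20000 top peaks the difference was 2.50 regions in MED1 and 0 in MED24.

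**Figure D2:**
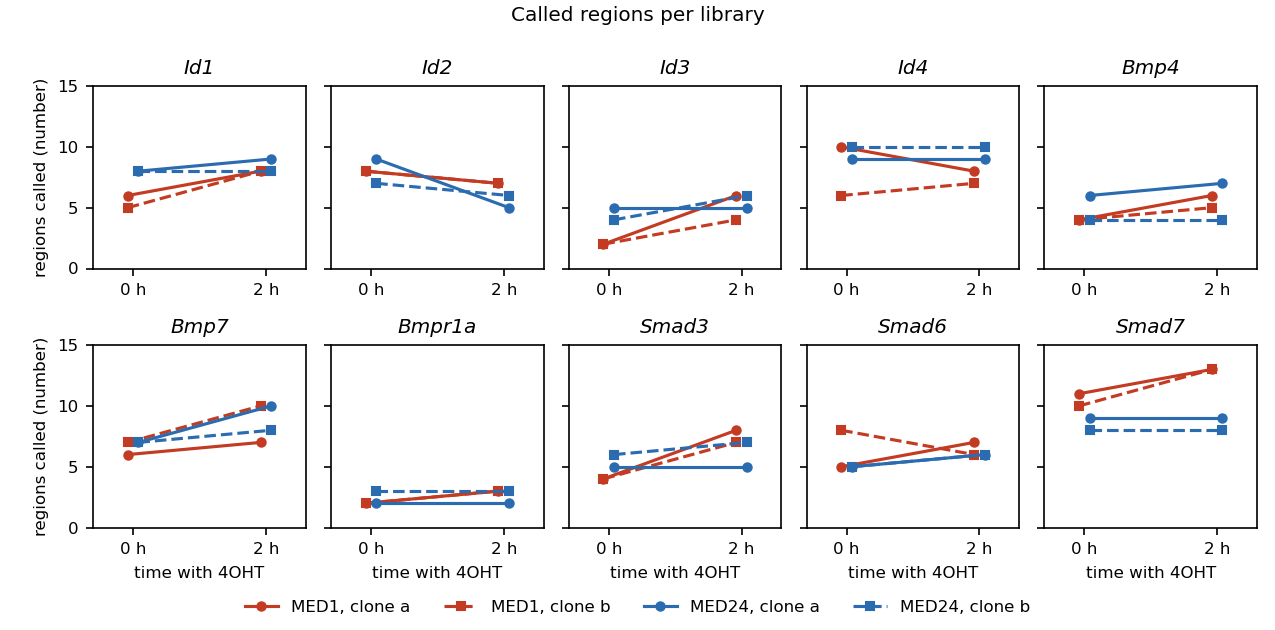
Number of regions called at each gene in each library, at 0 h and after 2 h of 4OHT; lines join the libraries of a clone, red for MED1 and blue for MED24. At Id1, Id3, Bmp4, Bmp7, Bmpr1a, Smad3 and Smad7 both MED1 clones lie higher at 2 h, and at Id2 all 4 lines go down.

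Id3 went from 2 and 2 MED1 regions (clones a and b) to 6 and 4, Smad3 from 4 and 4 to 8 and 7, and Id1 from 6 and 5 to 8 and 8. Id4 went from 10 and 6 MED1 regions to 8 and 7, and Smad6 from 5 and 8 to 7 and 6, so that the clones differed in direction at both genes. Id2 had fewer at 2 h in both clones, with 8 and 8 MED1 regions at 0 h and 7 and 7 at 2 h, and with 9 and 7 MED24 regions at 0 h and 5 and 6 at 2 h. MED24 peaks at Id2 covered 5.30 and 4.36 kb at 0 h and 2.22 and 2.96 kb at 2 h. MED1 peaks at Id1 went the other way, from 3.63 and 3.56 kb to 6.07 and 5.98 kb. Neither gene's values overlapped between the times, which was not particular to these 2 genes. Covered kb also lay apart between the times in MED1 at Id3, Id4, Bmp4 and Smad7, and in MED24 at Id3, Bmp4 and Bmp7. It was slightly lower at 2 h at Id4 and higher at 2 h at the others. How often values lie apart over all genes was not counted, and 2 libraries per time give such a gap little weight. Over the whole genome MED1 peaks covered 23.7 and 22.9 Mb at 0 h and 24.9 and 27.4 Mb at 2 h. MED24 peaks covered 22.8 and 20.8 Mb and then 22.4 and 26.6 Mb.

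Strength was compared at retained regions. Each was given its percentile among all regions of its library, by the authors' −log10 p in the MED1 lists and by their score in the MED24 lists, so that the 100th percentile is the strongest. The median difference between clones of the same time was 7.46 points at 0 h and 7.59 at 2 h over the 34 MED1 regions, and 5.75 and 5.11 over the 39 MED24 regions. The mean 2 h minus 0 h shift was 2.50 points in MED1, with a median of -2.61, beside -2.74 and -3.12 over all 19064 retained MED1 regions. In MED24 it was 2.46 with a median of 1.19, beside 0.282 and -0.0483 over all 20036. In clone a alone the mean MED1 shift was -0.156 points, in clone b 5.15, and leaving out clone b at 2 h made it -0.788. With a score of at least 50 the mean MED24 shift was -0.625, so neither mean has a firm direction.

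Single regions moved far more than the mean of the list. At least 20 points higher in both clones were 4 of 34 MED1 regions (11.8%, beside 7.08% of all retained regions) and 4 of 39 MED24 regions (10.3%, beside 10.1%). At least 20 points lower in both were 1 MED1 region (2.94%, beside 8.96%) and 5 MED24 regions (12.8%, beside 9.97%). These 14 entries lay at Id1, Id2, Id4, Bmp4, Bmp7 and Smad7, and none at Id3, Bmpr1a, Smad3 or Smad6. A percentile cannot pass 100, so a region near the top at 0 h had no room to rise by 20 points. Such were the only retained MED1 regions of Id3 (99.6 and 99.0 at 0 h) and Bmpr1a (90.2 and 94.3). Near the top a percentile can hide a change in peak strength.

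**Figure D3:**
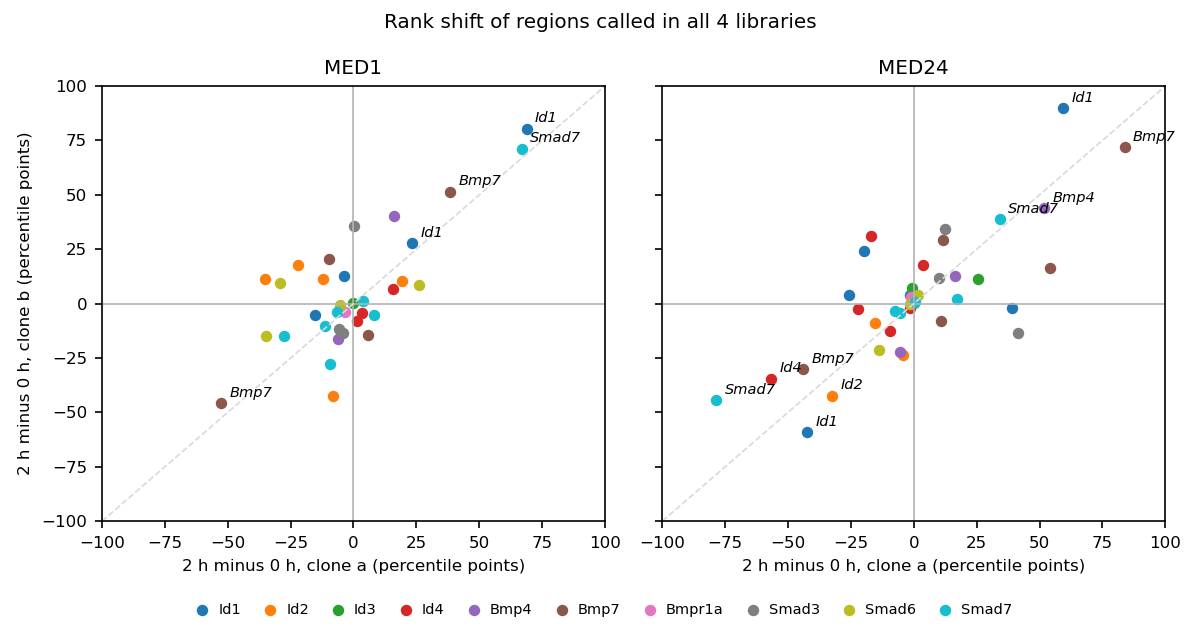
Shift in percentile points (2 h minus 0 h) in clone a against clone b for the member regions called in all 4 libraries of MED1 (34 points, left) and MED24 (39 points, right); the dashed line marks equal shifts. In MED1, regions at Id1, Smad7 and Bmp7 lie far up in both clones and the Bmp7 region inside the gene far down. In MED24, regions at Bmp7, Id1 and Bmp4 lie farthest up, and other regions at Smad7, Id1 and Id4 farthest down. Labels mark shifts of at least 20 points in both clones.

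Bmp4 encodes a ligand that serum-free stem cell cultures are given in place of serum. It lies on chromosome 14 (46383525 to 46390669, minus strand), with no other protein-coding gene within 100 kb. Its strongest retained region lay 44.087 kb beyond the 3′ end (46338615 to 46339438) and stood at the 79.4 and 57.4 percentiles of MED1 at 0 h (clones a and b) and at 95.6 and 97.9 at 2 h. MED24 there stood at 79.7 and 85.4 at 0 h and 95.9 and 97.9 at 2 h. The 2 h values lay above the 0 h values in both proteins.

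Nearer the gene, a region upstream of the 5′ end (46391398 to 46392288 in MED24, 0.729 kb away) stood at the 39.6 and 46.2 percentiles of MED24 at 0 h and at 91.4 and 90.03 at 2 h. MED1 was called there at 2 h alone, at 77.2 and 72.7 (46391572 to 46392236). The other gained MED1 region (46390213 to 46390886) straddled the 5′ end of the gene, at 12.4 and 51.1, and had no MED24 region on it. The lost MED1 region lay 21.893 kb upstream (46412562 to 46413087) and had stood at 47.2 and 35.9. Both gained MED1 regions of Bmp4 thus lay within 1 kb of its 5′ end, and the lost one lay far upstream. MED24 was still called at that upstream site in clone a at 2 h, at 40.8, after 18.4 and 65.2 at 0 h.

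The 250 bases before the listed start of Bmp4 are shown because the gained MED1 region covers most of them (chr14:46390670-46390919, minus strand, RefSeq, GRCm38.p6). Capitals mark the ETS core CGGAAG, here on the opposite strand. ETS factors are a family of DNA-binding proteins, of which some respond to ERK.
Bmp4: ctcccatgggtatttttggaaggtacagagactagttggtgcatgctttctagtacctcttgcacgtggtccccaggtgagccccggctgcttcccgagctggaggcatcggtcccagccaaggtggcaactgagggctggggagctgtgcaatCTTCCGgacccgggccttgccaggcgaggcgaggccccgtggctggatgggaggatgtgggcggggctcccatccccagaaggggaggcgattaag

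This motif stands in 13.6% of the 32851 promoter windows of that length in the table, counting both strands, and in 2 of the 7 member genes that the table holds (Bmp4 and Id2). Id1, Bmp7 and Smad7 are not among the 7. A match is a description of the letters and does not show that a factor binds.

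Bmp7 encodes a second ligand and lies on chromosome 2 (172868012 to 172940321), with Spo11 37.058 kb away on the higher-coordinate side and Tfap2c 309.39 kb away on the lower. A region 30.929 kb out on the lower-coordinate side (172836295 to 172837083) stood at the 0.863 and 16.9 percentiles of MED24 at 0 h and at 84.6 and 88.7 at 2 h. MED1 was called there at 0 h in clone a alone, at 0.505, and at 82.1 and 94.2 at 2 h. Both proteins thus placed this site near the bottom of the lists at 0 h, where they called it, and in the upper part at 2 h.

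A region inside Bmp7 (172870991 to 172872403 in MED1) went the other way. MED1 stood at 82.5 and 64.3 there at 0 h and at 29.9 and 18.8 at 2 h, and MED24 at 91.3 and 85.0 and then at 47.5 and 55.0. It was the single MED1 member region that ranked at least 20 points lower in both clones. Another region 4.307 kb below the gene (172862760 to 172863705) stood at 2.19 and 10.5 in MED1 at 0 h and at 40.7 and 62.0 at 2 h. Its MED24 values were 15.9 and 58.6 and then 69.9 and 75.1.

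A distal site 58.352 kb below Bmp7 (172809364 to 172809660) was gained in both proteins, at the 62.1 and 55.9 percentiles of MED1 and the 70.6 and 81.8 percentiles of MED24. The other gained regions of Bmp7 ranked lower, at 9.20 and 24.7 in MED1 (172864672 to 172864980) and at 2.13 and 37.8 in MED24 (172867239 to 172867672). The lost MED24 region (172827425 to 172828107) had stood at 36.5 and 34.0. The region at the higher-coordinate end of the gene (172939878 to 172940769) was retained, with MED1 at 48.4 and 54.1 and then at 54.2 and 39.9, so the clones differed in direction there.

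Bmpr1a, the type I receptor gene, lies on chromosome 14 (34411061 to 34503336, minus strand) and had the fewest regions, 4 in each protein. The region at its 5′ end (34501568 to 34503584) was retained at high rank, with MED1 at 90.2 and 94.3 at 0 h and 86.9 and 90.5 at 2 h. MED24 stood at 81.4 and 76.1 and then at 80.3 and 79.3. A region inside the gene (34467475 to 34467847) was gained in both proteins, at 53.0 and 56.8 in MED1 and 50.9 and 64.0 in MED24. Another inside the gene (34459740 to 34460774) was lost in MED1, where it had stood at 47.7 and 21.3. MED24 was called at that site in both clones at 0 h and in clone b at 2 h. The other gained MED1 region (34503720 to 34504091) stood at 53.2 in clone a and at 0.270 in clone b.

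Smad3, which encodes the Smad of the Nodal and activin branch, spans 111.229 kb of chromosome 9 (63646766 to 63757994, minus strand) and had the most gained and lost MED1 regions together, 5 of its 9. A region inside it (63741919 to 63742383) was lost in both proteins, after 60.2 and 50.8 in MED1 and 83.3 and 78.0 in MED24. It was the only member region lost in both. Less than 6 kb closer to the 5′ end, another (63747689 to 63748113) was gained in both, at 86.7 and 71.2 in MED1 and 74.8 and 61.5 in MED24. So neighbouring sites inside 1 gene were called at opposite times, each in both subunits. Agreement of the clones is part of how gained and lost regions were defined.

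A further site 35.694 kb upstream of Smad3 (63793688 to 63794143) was gained in both proteins, at 76.1 and 79.9 in MED1 and 70.2 and 75.3 in MED24. A site 81.352 kb upstream (63839346 to 63839738) was gained in MED1 at 67.8 and 65.0 and had no MED24 region on it. A MED24 region 78.934 kb upstream (63836928 to 63837380) was lost after 25.7 and 22.9. The region at the 5′ end (63757712 to 63758909) was retained but low, with MED1 at 53.1 and 31.1 and then at 49.0 and 17.8. The strongest retained region, 45.135 kb upstream (63803129 to 63803954), stood at 63.7 and 64.8 and then at 57.8 and 53.0 in MED1, and at 75.2 and 70.5 and then at 85.3 and 82.2 in MED24.

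Smad6 encodes an inhibitory Smad that acts mainly on BMP signals and lies on chromosome 9 (63953076 to 64022085, minus strand). Its strongest region lay 20.81 kb upstream (64042895 to 64043807) and ranked high throughout, with MED1 at 98.4 and 96.1 and then at 93.1 and 95.4, and MED24 at 99.4 and 99.1 and then at 98.0 and 98.7. At the 5′ end (64021022 to 64023390) MED1 stood at 66.9 and 75.0 at 0 h and 32.1 and 60.1 at 2 h, and MED24 at 82.9 and 88.0 and then at 69.1 and 66.7. Both proteins thus ranked lower at the 5′ end in both clones, by less than 20 points in 1 of the clones of each. A site inside the gene (64018323 to 64018873) was gained in both proteins, at 13.3 and 31.9 in MED1 and 51.7 and 68.3 in MED24. A MED24 region inside it (64015971 to 64016449) was lost, after 15.9 and 39.2.

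Smad7 encodes the inhibitory Smad that acts on both branches of the family and lies on chromosome 18 (75367365 to 75395935). It had the most MED1 regions, 19, of which 7 were retained. A region inside the gene (75375243 to 75376476), about 8 kb from its lower-coordinate end, stood at 25.5 and 23.04 in MED1 at 0 h and at 92.4 and 94.3 at 2 h. MED24 stood at 53.0 and 49.9 there and then at 87.3 and 88.7. The clones lay close together at each time. The region was named because its rank rose in both clones, so the distance between times adds no further support.

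The next region inward in Smad7 (75380204 to 75380712 in MED24) went the other way, with MED24 at 79.0 and 75.7 at 0 h and at 0.497 and 31.5 at 2 h. MED1 stood at 38.8 and 45.3 and then at 11.1 and 30.3 there. The region at the lower-coordinate end of the gene (75366250 to 75371063) stood at 98.9 and 97.8 in MED1 at 0 h and 87.4 and 87.6 at 2 h. The strongest region, 21.084 kb outside that end (75341567 to 75346281), stood at 95.7 and 98.2 and then at 99.5 and 99.7 in MED1, and at 99.2 and 98.9 and then at 99.8 and 99.8 in MED24. The gained and lost MED1 regions of Smad7 were weak, from the 5.74 to the 12.9 percentile, while a MED24 region 37.144 kb away (75329585 to 75330221) was lost after 66.3 and 82.5.

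**Figure D4:**
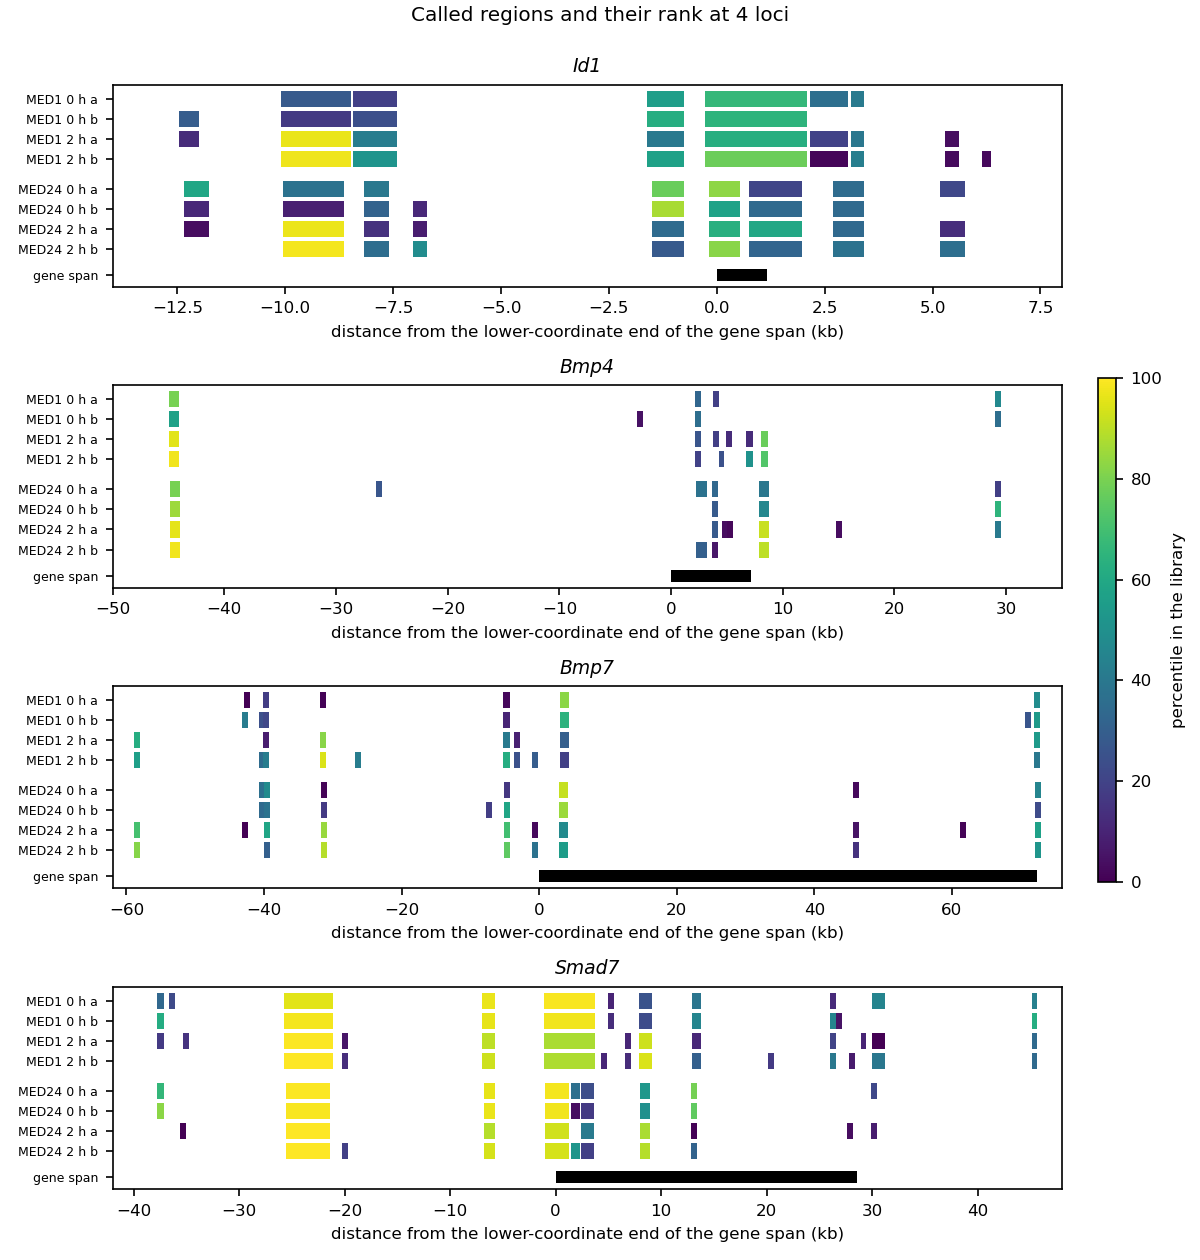
Called regions at Id1, Bmp4, Bmp7 and Smad7 in each of the 8 libraries (rows; clone a or b at the end of each label), by distance in kb from the lower-coordinate end of the gene span (black bar). Colour gives the percentile of the region in its library, and very narrow regions are drawn at a minimum width. The Id1 region about 9 kb to the left of the gene is dark at 0 h and bright at 2 h in both proteins and clones.

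Id1 had the largest MED1 shift of rank among the retained member regions. The gene lies on chromosome 2 (152736251 to 152737410), with H13 27.583 kb away on the lower-coordinate side and Cox4i2 16.506 kb away on the higher. A region 8.465 kb out on the lower-coordinate side (152726149 to 152727786) stood at the 27.8 and 17.0 percentiles of MED1 at 0 h and at 96.7 and 97.4 at 2 h. MED24 stood at 37.8 and 8.76 there at 0 h and at 97.1 and 98.4 at 2 h. The shifts were 68.8 and 80.4 points in MED1 and 59.4 and 89.7 in MED24. The median difference between clones over the retained member regions was under 8 points. At this site the clones lay farther apart than that at 0 h in both proteins, most of all in MED24.

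The authors' fold enrichment of the MED1 peak at this Id1 site was 4.67 and 4.09 at 0 h and 14.3 and 17.0 at 2 h in clones a and b. It was the top ranked Id1 region in all 4 libraries at 2 h, while at 0 h the region over the gene ranked above it in all 4. The region beside it (152727810 to 152728841) also ranked higher in MED1, at 18.9 and 24.1 and then at 42.1 and 51.9, whereas MED24 there stood at 40.2 and 31.5 and then at 14.4 and 35.3. With 20000 peaks per library the site was called in neither clone at 0 h and in both at 2 h, in each protein, and so counted as gained.

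A site much closer to Id1 moved the other way in MED24. This region, 0.77 kb below the gene (152734758 to 152735481), stood at 77.0 and 86.8 in MED24 at 0 h and at 34.5 and 27.8 at 2 h. MED1 there stood at 55.7 and 62.5 and then at 40.2 and 57.2, lower in both clones by less than 20 points. Over the gene itself MED1 (152735982 to 152738340) stood at 66.5 and 64.7 and then at 62.7 and 77.5, and the clones differed in direction. MED24 over the start of the span (152736061 to 152736798) did likewise, at 82.9 and 57.8 and then at 63.00 and 82.1. The gained MED1 region of Id1 (152741537 to 152741856) was weak, at 3.26 and 2.36.

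Id2 lies on chromosome 12 (25093799 to 25096092, minus strand) and all 3 of its retained MED24 regions ranked lower at 2 h in both clones. So did 15 of the 39 retained MED24 member regions (38.5%) and 35.4% of all retained MED24 regions. The region 2.402 kb upstream (25098494 to 25099235) stood at 85.0 and 89.5 in MED24 at 0 h and at 52.5 and 47.3 at 2 h. MED1 stood at 73.1 and 86.0 there and then at 64.8 and 43.5. At the 5′ end (25095792 to 25097276) MED24 stood at 71.4 and 84.2 and then at 67.2 and 60.8. A MED24 region 3.149 kb upstream (25099241 to 25100110) was lost after 33.5 and 22.9. In the opposite direction, a site 28.346 kb upstream was called in MED1 at 26.5 in clone b alone at 0 h and at 62.2 and 77.1 at 2 h. MED24 gave 34.6 in clone b at 0 h and 67.9 and 83.0 at 2 h there.

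Id3 held the highest ranked Mediator site of the Id genes, at nearly the same percentile at both times. It lies on chromosome 4 (136143822 to 136145392, plus strand). MED1 formed 1 region of over 4 kb across the gene and beyond (136143590 to 136148149), at 99.6 and 99.0 at 0 h and 99.6 and 99.2 at 2 h. MED24 split the same stretch into 3 regions, of which that 0.515 kb past the 3′ end (136145907 to 136148138) stood at 99.7 and 99.2 and then at 99.8 and 99.5. The region at the 5′ end stood at 66.9 and 70.5 and then at 66.1 and 77.6 in MED24.

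Away from the gene, an Id3 site 26.299 kb upstream (136117021 to 136117523) was gained in both proteins, at 49.0 and 61.1 in MED1 and 32.4 and 59.2 in MED24. Another 32.852 kb upstream (136110517 to 136110970) was gained in MED1 at 64.8 and 73.6, and MED24 was called there at 33.5 in clone a alone at 0 h and at 67.2 and 69.8 at 2 h. A MED24 region 2.924 kb upstream (136140253 to 136140898) was lost after 69.9 and 76.9. In MED1 that site was called in 1 library, clone b at 0 h.

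Id4 lies on chromosome 13 (48261116 to 48266028, plus strand), far from other genes, with the nearest 214.735 kb away. A site 48.474 kb past its 3′ end (48314502 to 48314925) was gained in both proteins at high rank, at 78.8 and 79.1 in MED1 and 80.2 and 82.4 in MED24. A region 15.032 kb upstream (48245082 to 48246084) stood at 83.1 and 83.2 in MED24 at 0 h and at 26.5 and 48.8 at 2 h. MED1 was called there at 53.6 and 60.0 at 0 h, and at 2 h in clone b alone, at 43.5. The strongest region, 8.016 kb upstream (48252277 to 48253100), stood at 83.1 and 88.4 and then at 86.3 and 84.0 in MED1 and at 90.4 and 88.3 and then at 80.8 and 75.7 in MED24. A MED24 region 24.243 kb upstream (48236412 to 48236873) was lost after 47.2 and 57.8, and a weaker one was gained 70.543 kb past the 3′ end at 33.6 and 30.1. The other gained MED1 region, 89.09 kb upstream, was weak, at 7.98 and 9.21.

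Promoter windows of Id2, Id3 and Id4 are shown as those of the Id genes that the promoter table holds. In both proteins a region called in all libraries overlapped each window, as also at Smad3, Smad6 and Bmpr1a, and its rank differed widely. A region can be wider than the window, so the peak of each library need not lie on it. The windows shown are the 250 bases before the listed start (RefSeq, GRCm38.p6). They are chr12:25096093-25096342 (minus strand), chr4:136143572-136143821 (plus) and chr13:48260866-48261115 (plus). Capitals mark GGCGCC, the GC-rich element that BMP Smads bind, and CGGAAG, the ETS core.
Id2: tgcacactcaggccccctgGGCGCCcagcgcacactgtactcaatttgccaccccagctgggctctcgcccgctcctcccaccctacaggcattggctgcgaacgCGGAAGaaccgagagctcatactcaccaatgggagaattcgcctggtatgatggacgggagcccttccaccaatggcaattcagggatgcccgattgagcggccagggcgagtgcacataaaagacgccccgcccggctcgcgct
Id3: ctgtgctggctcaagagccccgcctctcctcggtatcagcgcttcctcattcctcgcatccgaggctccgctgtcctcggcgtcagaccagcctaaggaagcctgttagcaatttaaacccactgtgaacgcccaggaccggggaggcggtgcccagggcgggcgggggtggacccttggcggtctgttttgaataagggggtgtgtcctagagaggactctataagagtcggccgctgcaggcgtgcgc
Id4: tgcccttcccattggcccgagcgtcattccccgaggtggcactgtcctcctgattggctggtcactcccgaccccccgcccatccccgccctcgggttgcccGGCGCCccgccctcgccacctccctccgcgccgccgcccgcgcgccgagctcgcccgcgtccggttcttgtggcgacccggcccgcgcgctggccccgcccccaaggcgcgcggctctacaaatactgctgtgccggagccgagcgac

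GGCGCC was found in the windows of Id2, Id4 and Bmpr1a, 3 of 7, and in 9.59% of all windows, and reads the same on both strands. The 7 windows held from 62.8% to 78.8% G and C, and no comparison with windows of like content was made. The palindromic Smad element GTCTAGAC, the cyclic AMP element TGACGTCA and the Egr element GCGTGGGCG were in none of the 7 windows and in 0.167%, 1.55% and 0.536% of all. The Id3 window held none of the 5 motifs. No 2 matches overlapped, and nothing beyond these windows was searched.

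MED1 and MED24 were then set side by side at the member regions. Of the 18 gained MED1 regions, 7 (at Id3, Id4, Bmp7, Bmpr1a and Smad6, and 2 at Smad3) overlapped a gained MED24 region, and 13 overlapped a MED24 region of any kind. These shares of 38.9% and 72.2% stand beside 61.8% and 88.3% over all gained MED1 regions assigned to a gene. Of the 9 gained MED24 regions 7 (77.8%) overlapped a gained MED1 region, beside 66.5% over all. Of the 4 lost MED1 and 8 lost MED24 regions, 1 each, at Smad3, was shared. Over all genes 43.2% of lost MED1 and 33.8% of lost MED24 regions were shared. Of the 34 retained MED1 regions 29 (85.3%) overlapped a retained MED24 region, beside 84.7% over all. No member region gained in one protein was lost in the other, and over all genes 5 of 10182 gained MED1 regions were. Both proteins were mapped in clones of the same names at the same times, and these overlaps are a description.

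Other genes of the pathway were counted in 7 lists. The 100 listed genes all had an entry in the table of gene spans. Targets of BMP and Smads had the largest share of gained regions, 27 of 90 (30.0%) in MED1 with 5 lost, and 27 of 82 (32.9%) in MED24 with 8 lost, beside the 17.0% and 15.8% over all assigned regions. In MED1, gained regions outnumbered lost ones at 7 of its 13 genes and the reverse held at 1, and in MED24 at 8 and 2. Over all genes with a region, gained ones outnumbered lost ones at 31.8% in MED1 and 29.2% in MED24, and the reverse held at 10.7% and 13.5%. The listed targets held more regions each (90 MED1 regions at 13 genes, beside 59824 at 16001), which makes unequal counts likelier. Runx2, a master gene of bone, had 5 of 8 MED1 and 7 of 11 MED24 regions gained and none lost. Msx2, a homeobox gene, had 7 of 13 and 6 of 16 gained with 1 and 2 lost. Klf4, a pluripotency factor gene, went the other way, with 1 gained and 3 lost of 12 MED1 regions and 3 of 9 MED24 regions lost. Dusp9, an ERK phosphatase gene under BMP control in stem cells, had no gained region, and 1 of 2 MED24 regions lost.

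Intracellular regulators of Smads had 25 of 133 MED1 regions gained (18.8%) and 7 lost, and 25 of 132 MED24 regions gained (18.9%) and 8 lost. These gained shares lie near the 17.0% and 15.8% over all regions. Gained regions outnumbered lost ones at 11 of the 17 genes in MED1 and at 12 in MED24, and the reverse held at 2 in each. Over all genes with a region, gained ones outnumbered lost ones at 31.8% and 29.2%. The 17 genes also held more regions each (133 in MED1, beside 59824 at 16001 genes), which makes unequal counts likelier. Among the 17 genes were Zfp423, which encodes a partner of BMP Smads (5 of 25 and 4 of 28 gained, none lost), and Skil. Skil encodes a repressor of Smads (3 of 8 and 4 of 7 gained), and Tgif1 another repressor (3 of 19 and 2 of 15). Receptor and common Smads had 2 of 21 MED1 regions gained (9.52%) and none lost, and 2 of 18 MED24 regions gained (11.1%) and 1 lost. Smad1 had 2 MED1 regions and 1 MED24 region gained and 1 MED24 region lost, and Smad2 and Smad5 had neither gained nor lost regions.

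Ligand genes had 15 of 80 MED1 regions gained (18.8%) and 9 lost, and 11 of 79 MED24 regions gained (13.9%) and 9 lost. Bmp6 had 3 and 1 gained, Bmp1, which encodes a protease and no ligand of the family, 2 of 3 and 3 of 5, and Lefty1, a Nodal inhibitor, had 3 lost in each protein and 1 gained. Receptor genes had 7 of 67 MED1 regions gained (10.4%) and 8 lost, and 9 of 72 MED24 regions gained (12.5%) and 7 lost. Tgfbr2 had 3 gained in each protein and 1 lost in MED24, while Tdgf1, the Nodal co-receptor gene, had 2 lost in each. At extracellular antagonists 4 of 45 MED1 regions were gained (8.89%) and 6 lost (13.3%), and 6 (13.3%) and 7 (15.6%) of 45 MED24 regions. Twsg1 had 3 and 1 gained and Chrd 1 lost in each. Over all assigned regions 17.0% were gained and 6.53% lost in MED1, and 15.8% and 8.30% in MED24. The E protein genes Tcf3, Tcf4 and Tcf12, whose products Id proteins bind, had 4 of 31 MED1 regions gained (12.9%) and 3 lost (9.68%). In MED24 5 of 32 were gained (15.6%) and 3 lost (9.38%). Tcf4 accounted for 2 of the 3 lost regions in each protein and Tcf12 for the other.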

How the data were processed

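Each library's peak list was deposited separately. Per the submitters' processing notes, Bowtie2, bedtools and MACS2 were used with mm10. How the inputs were used, and the tools' versions, were not given in the sources used here. The deposited MED1 lists give a score, a fold enrichment (a ratio), the −log10 p-value and the −log10 q-value of each peak. The authors' score there equalled the whole part of 10 times −log10 q for 100% of peaks. The deposited MED24 lists give a score alone, taken to be of the same kind, which the files leave unsaid. Every list starts at a score of 20. MED24 peaks are named with FLAG and with EP300, another cofactor; the labels were followed.

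Per protein, peaks of the autosomes, X and Y were joined (65291 MED1 and 66123 MED24 regions) with Python 3.11.15, pandas and NumPy. A region inside several genes went to the gene with the closest end. A region's strength in a library was that of its strongest peak. Steps were tested on simulated data. Members, gene lists and the rule for named regions were chosen with earlier results of these data known: all 10 members, their gained and lost regions (at most 4 a gene, by rank), the strongest retained region of each, those that moved by at least 20 points in both clones, and up to 3 genes a list. Some further regions and list genes were named after their values were seen. Clones a and b pair the libraries by label; over all retained regions the difference between clones at 0 h correlated with that at 2 h at r = -0.00889 (MED1) and -0.00534 (MED24).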

Additional observations from a re-analysis of the deposited data

Results flagged for a closer look

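At 4 of 33 pairs of overlapping regions retained in both proteins, MED1 and MED24 moved in opposite directions, each in both clones. That is 12.1% of pairs, beside 8.22% of all 16485 such pairs assigned to genes. The difference was not tested, and at Id4 the MED24 shifts (-1.50 and -1.93 points in clones a and b) were smaller than the median difference between clones. At the Id2 site about 48 kb upstream the mean shift was 14.95 points in MED1 and -12.1 in MED24. At Id4, about 33 kb upstream, it was 11.4 and -1.71 points. At Smad3, about 45 kb upstream, it was -8.82 and 10.9 points. At the lower-coordinate end of Smad7 it was -10.9 points for the wide MED1 region and 9.67 for a narrower MED24 region inside it, which is not the strongest MED24 region of that stretch.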

How the results depend on the processing

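Counts of gained and lost member regions were small and moved with the rules. With 20000 peaks per library 11 MED1 regions were gained, and with assignment within 20 kb 11. In MED24, assignment within 20 kb left 4 gained and 4 lost, and taking any region within 20 kb, whichever gene was nearest, 5 and 4. The replicate block gave 30 gained and 15.5 lost in MED1 and 20.5 and 17.5 in MED24. Leaving out 1 library at a time gave 6 to 14 lost MED1 regions, and 11 to 19 gained and 11 to 13 lost MED24 regions. The difference in calls per MED24 library was 0 with 20000 peaks. The mean MED1 rank shift was -0.337 with 20000 peaks, from -0.788 to 4.10 without 1 library, and -2.61 as a median. The mean MED24 shift was -0.625 with a score of at least 50, -4.20 with 20000 peaks, -0.590 within 20 kb by either assignment, from 0.998 to 4.18 without 1 library, and 1.19 as a median. Joining peaks at an overlap of at least 100 bp left all 8 results within 1.5 times or the spread between clones.

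The single regions that moved by at least 20 points in both clones were recomputed with alternatives chosen after seeing the data. None changed direction where a value could be had. With 20000 peaks, of 5 MED1 regions 2 became gained and 1 lost, and of 9 MED24 regions 2 became gained, 4 lost, 2 neither, and 1 stayed retained. With a score of at least 50, 4 of 5 and 6 of 9 stayed retained. The number of clones, 2, limits precision.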

Other observations

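Gained regions at these genes lay farther out than those of all genes, which was not tested. A gene's span and its distance to neighbours limit where its regions, gained or retained, can lie, and genes were not matched for either. Id1, Id2, Id3, Id4 and Bmp4 span from 1.16 to 7.145 kb, and the remaining members from 28.571 to 111.229 kb. The nearest other gene lies from 2.176 kb (Smad3) to 369.792 kb (Bmp4) away. Of 18 gained MED1 regions 6 lay inside a member gene, 5 within 20 kb and 7 beyond, and of 9 gained MED24 regions 3, 1 and 5. Over all genes 19.2% of gained MED1 regions and 18.1% of gained MED24 regions lay beyond 20 kb and 56.5% and 58.1% inside a gene. Retained member regions also lay outside more often, with 11 of 34 MED1 and 11 of 39 MED24 regions beyond 20 kb against 10.1% and 11.7% over all genes. Gained member regions were narrow, with a median width of 0.393 kb in MED1 and 0.396 kb in MED24, beside 0.903 and 0.914 kb for retained ones. Over all genes the medians were 0.430 and 0.426 kb for gained and 0.974 and 0.855 kb for retained regions.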
